A study of Mus musculus with 4 samples.

Results

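Thrombospondins, tenascins and other matricellular proteins were followed across 4 RNA-seq libraries of cultured mouse fibroblasts. The members were 10 genes chosen by name, with earlier results of these data known: *Thbs1*, *Thbs2*, *Thbs3*, *Tnc*, *Tnxb*, *Postn*, *Sparc*, *Spp1*, *Fn1* and *Sned1*. They correspond to 23 of the 32757 RefSeq transcript IDs of the count tables, and each gene was represented by its ID with the highest summed count. The libraries came from immortalized mouse dermal fibroblasts (imMDFs) grown in serum-containing medium with no treatment. The genotypes were Lap2alpha +/+, called *Tmpo* WT, and Lap2alpha -/-, called *Tmpo* KO, which lacks LAP2alpha, the product of *Tmpo* that binds A-type lamins inside the nucleus. Each genotype gave 1 library at passage 34 (replicate 1) and 1 at passage 42 (replicate 2), and the comparison asked which transcripts differ when LAP2alpha is missing. The labels name no more than 1 cell line per genotype, so the loss of LAP2alpha cannot be told apart from other differences between the lines. The replicates were passages of a line, and p-values measure only the spread between these libraries.

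Matricellular proteins are secreted into the extracellular matrix but serve mainly as regulators rather than as load-bearing fibres. They bind collagens, proteases, growth factors and cell surface receptors such as integrins, and many are abundant in embryos and wounds and scarce in resting adult skin. Thrombospondins are multimeric glycoproteins with roles in angiogenesis and matrix assembly. Tenascins are large proteins built of EGF-like and fibronectin type III repeats, and *Tnc* and *Tnxb* encode members with contrasting tissue distributions.

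Reads assigned to transcripts ranged from 12168433 to 19603812 per library, 31.4% to 36.7% of the reads in each file, and 12.1% to 13.4% were left out as ambiguous between IDs. For the targeted transcript, *Tmpo* NM_011605, WT had 903 reads at passage 34 and 1324 at passage 42, against 6 in each KO library. The 10 fibroblast markers examined summed to between 11422 and 15572 CPM (reads of a transcript scaled to a common library total, with TMM normalization) in each library. Among them *Pdgfrb* was at 0, *Thy1* rose in KO (log2 fold change 1.80, edgeR adjusted p = 0.00469) and the other 8 did not pass. The median log2 fold change of the 9 tested markers was −0.28, with *Dcn* lowest at −1.18 (edgeR adjusted p = 0.194). Adjusted p-values, given as edgeR adjusted p, are from its quasi-likelihood test with Benjamini-Hochberg adjustment over all tested transcripts. Keratinocyte, endothelial, leukocyte and adipocyte markers each summed to at most 16.5 CPM, melanocyte markers to at most 48.4 CPM, and smooth muscle and pericyte markers to between 2196 and 3223 CPM. Of the last list *Acta2* had 1681 to 2499 CPM, *Tagln* 330 to 569 and *Cnn1* 182 to 258. *Des* reached at most 3.01 CPM, *Rgs5* at most 1.14 CPM and *Myh11*, a gene of 2 IDs, at most 5 reads. Of the melanocyte markers *Tyr* alone had 26.3 to 40.1 CPM. *Tek* of endothelium and *Cd68* and *Itgam* of leukocytes were at 0. Like *Pdgfrb*, these genes have several IDs, so reads ambiguous between IDs were left out and a count of 0 does not show absence. Cartilage and bone markers summed to 121 and 199 CPM in WT and to 65.0 and 58.9 CPM in KO. Within that list *Sox9* fell (−1.41, edgeR adjusted p = 0.0125), *Acan* (0.19, 0.928) and *Sp7* (0.09, 0.978) did not pass, and *Bglap* was at 0. *Col2a1* took 30 and 59 reads in WT and 0 and 4 in KO under the larger of its 2 IDs. It was called lower but reached the expression filter through WT alone. Whether any of these markers has a part in the differences of the matricellular genes was not tested. In bulk RNA, fewer cells of a type and less RNA per cell cannot be told apart.

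*Thbs2* and *Tnxb* fell in *Tmpo* KO and *Tnc* rose. The leading ID of *Postn* was also called lower, on few reads and not with the counts of its IDs summed, while *Thbs1*, *Thbs3*, *Fn1* and *Sned1* did not pass the test. Of the 10 members, 8 reached the filter of at least 1 CPM in both libraries of a genotype. *Spp1* lay below it and *Sparc* was at 0. *Postn* reached the filter through its WT libraries alone, with 1 of its KO libraries under 1 CPM. Of these 8, 1 was called higher and 3 lower at an adjusted p under 0.05, against a background of 1.51% called higher and 1.24% called lower (2.75% in all) among the 13855 transcripts tested. At an unadjusted p under 0.05 the count was 6 of 8, beside 12.8% of all tested transcripts. The CPM of the genotypes did not overlap in 7 of the 8, 3 with KO higher and 4 with KO lower, and the same held for 41.9% of all tested transcripts (21.9% with KO higher and 19.9% with KO lower). The median log2 fold change of the 8 was −0.75, beside 0.02 for all tested transcripts. Because the members were chosen with earlier results of these data known, these shares do not show that matricellular genes differ more than others. In each of the 8 the sign of the difference was the same at both passages, which in 7 of them follows from the lack of overlap. The share of all tested transcripts with the same sign at both passages was not computed.

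**Figure D1:**
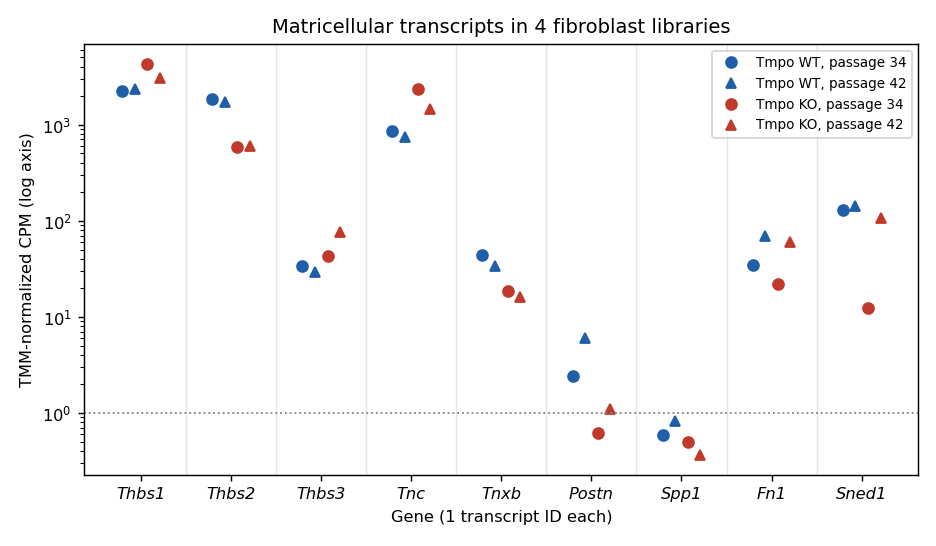
TMM-normalized CPM of 9 members plotted on a log axis by library, where blue is *Tmpo* WT and red is *Tmpo* KO, with circles for passage 34 and triangles for passage 42; the dotted line marks 1 CPM. *Thbs2* shows WT at 1865 and 1710 CPM above KO at 577 and 597 CPM, and *Tnc* shows the opposite order; *Sparc*, at 0 in every library, is not drawn.

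*Thbs2* encodes thrombospondin-2, an inhibitor of angiogenesis that also binds matrix metalloproteinase 2 and is needed for normal collagen fibrils in skin. Its transcript NM_011581, on the minus strand at chr17:14802507-14831269 of mm9, took 22227 reads in WT at passage 34 and 26897 at passage 42, against 9403 and 11537 reads in KO. In normalized units these were 1865 and 1710 CPM in WT and 577 and 597 CPM in KO. Both KO libraries lay far below both WT libraries, and libraries of a genotype lay close together. *Thbs2* fell from 1787 ± 109 CPM to 587 ± 13.9 CPM (SD, n = 2 each), a 3.04-fold difference and a log2 fold change of −1.61 (standard error 0.220, 95% interval −2.09 to −1.12, edgeR adjusted p = 0.00287). Of all transcript reads, it took 0.183% and 0.172% in WT and 0.0596% and 0.0589% in KO. The call held under all 13 alternatives, with log2 fold changes from −1.67 to −1.53 and adjusted p-values up to 0.0185.

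*Thbs1*, whose product thrombospondin-1 inhibits angiogenesis and can activate latent TGF-beta, took the most reads of all members. The transcript NM_011580 (plus strand, chr2:117937612-117952869) had 26517 and 36667 counts in WT at passages 34 and 42 and 70214 and 59648 counts in KO. This corresponded to 2224 and 2332 CPM in WT and 4310 and 3086 CPM in KO. Both KO libraries were higher than both WT libraries, but the KO libraries differed from each other by more than the WT libraries did. The log2 fold change of 0.70 (standard error 0.257, 95% interval 0.13 to 1.26) did not pass (edgeR adjusted p = 0.247). It passed when no filter on low counts was applied (edgeR adjusted p = 0.0369), and it was 0.43 without KO replicate 1 (edgeR adjusted p = 0.671).

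*Thbs3* encodes a pentameric thrombospondin that is expressed in cartilage, bone and other connective tissue. Transcript NM_013691 (plus strand, chr3:89019102-89030759) had 33.7 and 29.1 CPM in WT and 43.2 and 75.9 CPM in KO at passages 34 and 42. The groups did not overlap, and the difference of KO from WT on the log2 scale was 0.36 at passage 34 and 1.38 at passage 42. Over all 4 libraries the log2 fold change was 0.93 (standard error 0.280, 95% interval 0.31 to 1.54, edgeR adjusted p = 0.140). Without KO replicate 1 it was 1.26 (edgeR adjusted p = 1.75e-04), without KO replicate 2 it was 0.42 (edgeR adjusted p = 0.441), and without a filter on low counts the adjusted p was 0.0205. *Mtx1*, an outer mitochondrial membrane import gene, overlaps the whole of *Thbs3* on the other strand, with 2 reads in WT at passage 42 and 0 reads in the other libraries. Ambiguous reads were left out, so these counts do not show that *Mtx1* was absent. Its part in the *Thbs3* counts was not tested.

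Within a library, the ratio of *Thbs1* to *Thbs2* reads needs no scaling between libraries. The WT ratio was 1.19 at passage 34 and 1.36 at passage 42, against KO ratios of 7.47 and 5.17, a 4.87-fold difference. Neither genotype overlapped the other (exact permutation test on log2 ratios, two-sided p = 0.333, the smallest that 2 libraries against 2 allow). With KO CPM higher for *Thbs1* and lower for *Thbs2*, the ratios had to separate, so this adds no evidence beyond the single genes. By contrast, the ratio of *Thbs1* to *Thbs3* was 66.0 and 80.2 in WT and 99.7 and 40.6 in KO, and these ranges overlapped (exact permutation test, two-sided p = 1). Per kilobase of the annotated transcript, *Thbs1* had 380 and 399 CPM per kb in WT and *Thbs2* 315 and 289, whereas in KO they had 737 and 528 against 97.5 and 101.

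*Tnc* encodes tenascin-C, a hexameric protein of embryonic mesenchyme, tendon and healing wounds. Its transcript NM_011607 (minus strand, chr4:63620819-63681760) had 10103 and 11647 counts in WT at passages 34 and 42 and 38363 and 28278 counts in KO. The normalized levels were 847 and 741 CPM in WT and 2355 and 1463 CPM in KO. Each KO library exceeded both WT libraries, and the KO library of passage 34 was the highest. *Tnc* rose from 794 ± 75.6 CPM to 1909 ± 631 CPM (SD, n = 2 each), a log2 fold change of 1.27 (standard error 0.267, 95% interval 0.68 to 1.85, edgeR adjusted p = 0.0290). The call was lost without WT replicate 1 (log2 fold change 1.38, edgeR adjusted p = 0.120), without WT replicate 2 (1.17, adjusted p = 0.304) and without KO replicate 1 (0.87, adjusted p = 0.0648). A long noncoding RNA gene, 8030451A03Rik, overlaps *Tnc* on the other strand and was not among the counted IDs.

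*Tnxb* encodes tenascin-X, which associates with collagen fibrils of the dermis and whose loss in humans causes a form of Ehlers-Danlos syndrome. Transcript NM_031176 (plus strand, chr17:34807480-34856760) took 518 and 528 reads in WT and 299 and 311 reads in KO. With library size taken into account these were 43.5 and 33.6 CPM in WT and 18.4 and 16.1 CPM in KO, so that both KO libraries lay below both WT libraries. *Tnxb* fell from 38.5 ± 6.98 CPM to 17.2 ± 1.60 CPM (SD, n = 2 each), a log2 fold change of −1.16 (standard error 0.255, 95% interval −1.72 to −0.60, edgeR adjusted p = 0.0355). It did not pass without WT replicate 1 (−0.95, edgeR adjusted p = 0.390) or without WT replicate 2 (−1.33, edgeR adjusted p = 0.143). The ratio of *Tnc* to *Tnxb* reads was 19.5 and 22.1 in WT and 128 and 90.9 in KO, and that of *Tnc* to *Thbs2* reads was 0.455 and 0.433 in WT and 4.08 and 2.45 in KO. Neither pair of ranges overlapped, with differences of 5.21-fold and 7.13-fold (exact permutation test, two-sided p = 0.333 for each). These separations follow from *Tnc* being higher and *Tnxb* and *Thbs2* lower in KO, and add no evidence beyond the single genes.

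**Figure D2:**
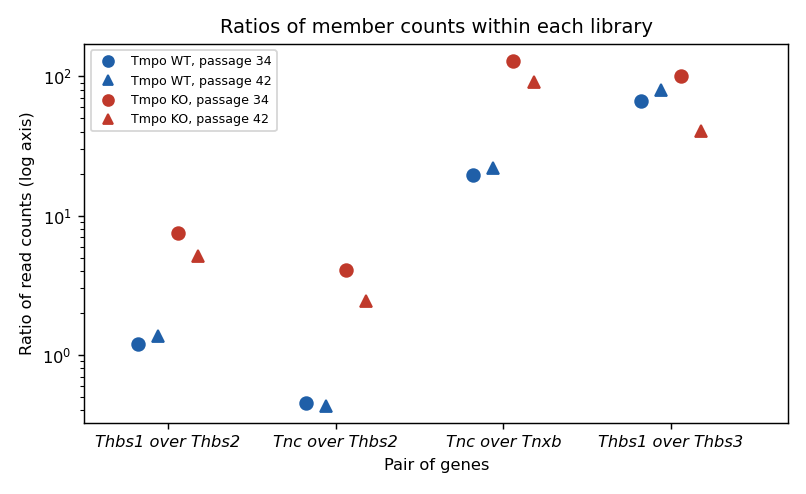
Ratios of read counts of 4 pairs of members within each library on a log axis, with *Tmpo* WT in blue, *Tmpo* KO in red, circles for passage 34 and triangles for passage 42. The KO libraries lie above the WT libraries for *Thbs1* over *Thbs2*, *Tnc* over *Thbs2* and *Tnc* over *Tnxb*. The CPM of the single genes fix this order. The genotypes overlap for *Thbs1* over *Thbs3*.

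*Postn* encodes periostin, a collagen-binding protein with fasciclin domains that takes part in collagen cross-linking. Few reads were assigned to its IDs. Transcript NM_015784 (plus strand, chr3:54165031-54194961) had 29 and 95 counts in WT at passages 34 and 42 and 10 and 21 counts in KO, or 2.43 and 6.04 CPM against 0.614 and 1.09 CPM. Both KO libraries were below both WT libraries, and in each genotype passage 42 had more than passage 34. By this ID *Postn* fell from 4.24 ± 2.55 CPM to 0.85 ± 0.334 CPM (SD, n = 2 each), a log2 fold change of −2.31 (standard error 0.534, 95% interval −3.48 to −1.13, edgeR adjusted p = 0.0453). A second ID, NM_001198765, took 22 and 59 reads in WT and 5 and 26 in KO (log2 fold change −1.73, edgeR adjusted p = 0.209), and the remaining ID was at 0. With counts summed over the IDs, *Postn* had a log2 fold change of −2.07 (edgeR adjusted p = 0.0790), and without WT replicate 2 it had −1.50 (edgeR adjusted p = 0.623).

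*Sned1* encodes a secreted protein with sushi, nidogen and EGF-like domains. Its transcript NM_172463 (plus strand, chr1:95132418-95197642) had 1530 and 2235 counts in WT at passages 34 and 42 and 200 and 2051 counts in KO, or 128 and 142 CPM against 12.3 and 106 CPM. The KO library of passage 34 stood far below the other 3, and the genotypes did not overlap. The difference on the log2 scale was −3.37 at passage 34 and −0.42 at passage 42. Over all libraries the log2 fold change was −1.19 (standard error 0.639, 95% interval −2.60 to 0.22, edgeR adjusted p = 0.510). Without KO replicate 2 it was −3.50 (edgeR adjusted p = 1.02e-22), without KO replicate 1 it was −0.36, and with no filter on low counts the adjusted p was 1.13e-04. The last 1855 bases of *Sned1* overlap *Mterf4*, a gene on the other strand, which took 719 and 1028 reads in WT and 281 and 827 in KO. *Mterf4* had a log2 fold change of −1.06 (edgeR adjusted p = 0.179). Its part in the *Sned1* counts was not tested.

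*Fn1*, the gene of fibronectin, had reads under 1 of its 7 IDs. NM_010233 (minus strand, chr1:71632094-71699774) took 412 and 1080 reads in WT and 356 and 1165 in KO, and the other 6 IDs were at 0 in all libraries. In CPM these were 34.6 and 68.7 in WT and 21.9 and 60.3 in KO, and the genotypes overlapped. The log2 fold change was −0.33 (standard error 0.425, 95% interval −1.26 to 0.60, edgeR adjusted p = 0.856). It turned to 0.21 without KO replicate 1 and to 0.25 without WT replicate 2, and it was −1.29 without KO replicate 2 (edgeR adjusted p = 0.00111).

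*Spp1* encodes osteopontin, an integrin ligand of bone and inflamed tissue. Its leading ID, NM_001204233, took 7 and 13 reads in WT and 8 and 7 in KO, below the filter, and its other 4 IDs were at 0. *Sparc* encodes a collagen-binding glycoprotein of connective tissue, and both of its IDs were listed at 0 in all libraries. A count of 0 allows up to 3 counts, which is 0.153 to 0.247 CPM without TMM, depending on the library, and covers counting error only. For genes with several IDs this limit applies to the reads that were assigned to an ID. Genes with 2 or more IDs were at 0 in all libraries in 16.3% of 4707 cases, whereas genes with 1 ID were so in 4.01% of 19025 cases. The counts of *Sparc*, *Spp1*, *Fn1* and *Postn*, the 4 members with several IDs, therefore cannot be read as levels of the gene. The same limit holds for markers and related genes with several IDs, among them *Pdgfrb*, *Yap1*, *Tead1* and *Cd44*.

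**Figure D3:**
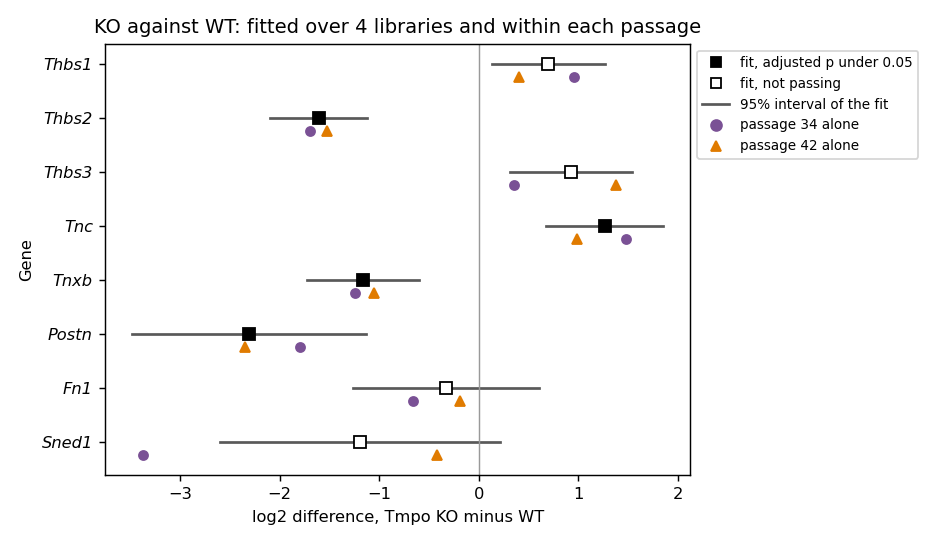
Log2 difference of *Tmpo* KO from WT for the 8 tested members: squares and bars give the fitted value over 4 libraries with its 95% interval, filled where the adjusted p was under 0.05, and circles and triangles give passage 34 and passage 42 alone. Within each gene both passages lie on the same side of 0, closest together for *Thbs2* and *Tnxb* and farthest apart for *Sned1* (−3.37 and −0.42).

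Among the 6 members with a single ID, levels per kilobase could be ordered. The lengths were those of GENCODE vM1 transcripts, which need not match the counted RefSeq transcripts. Reads in the overlaps of *Thbs3* with *Mtx1* and of *Sned1* with *Mterf4* may be mixed or left out, so close ranks are uncertain. Both WT libraries gave the order *Thbs1*, *Thbs2*, *Tnc*, *Sned1*, *Thbs3* and *Tnxb*, with *Tnc* at 124 and 108 CPM per kb, *Sned1* at 14.0 and 15.5, *Thbs3* at 10.6 and 9.11 and *Tnxb* at 3.52 and 2.72. No neighbours in that order overlapped between the WT libraries. Both KO libraries placed *Tnc* (345 and 214 CPM per kb) above *Thbs2* and *Thbs3* (13.5 and 23.8) above *Sned1* (1.34 and 11.6). *Sned1* and *Tnxb* (1.49 and 1.30 CPM per kb) exchanged places between the KO libraries.

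Passage 42 was compared with passage 34 in a fit with the genotype as a block. *Fn1* and *Sned1* were called higher, 2 of the 8 tested members, against 1.77% of all tested transcripts called higher and 0.541% called lower (2.31% in all). For *Fn1* the log2 difference was 1.23 (standard error 0.234, edgeR adjusted p = 5.93e-05), with differences of 0.99 in WT and 1.46 in KO. *Sned1* had 1.57 (standard error 0.217, edgeR adjusted p = 8.82e-10), with 0.15 in WT and 3.10 in KO. The difference between genotypes in the passage effect has no test, because the interaction leaves no residual degrees of freedom. By DESeq2 *Fn1* passed (adjusted p = 0.00696) and *Sned1* did not (adjusted p = 0.90), and without the genotype term edgeR called neither (adjusted p = 0.967 and 0.971). Of the remaining members, *Postn* (1.12, edgeR adjusted p = 0.246) and *Tnc* (−0.44, edgeR adjusted p = 0.322) had the smallest adjusted p-values and did not pass.

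**Figure D4:**
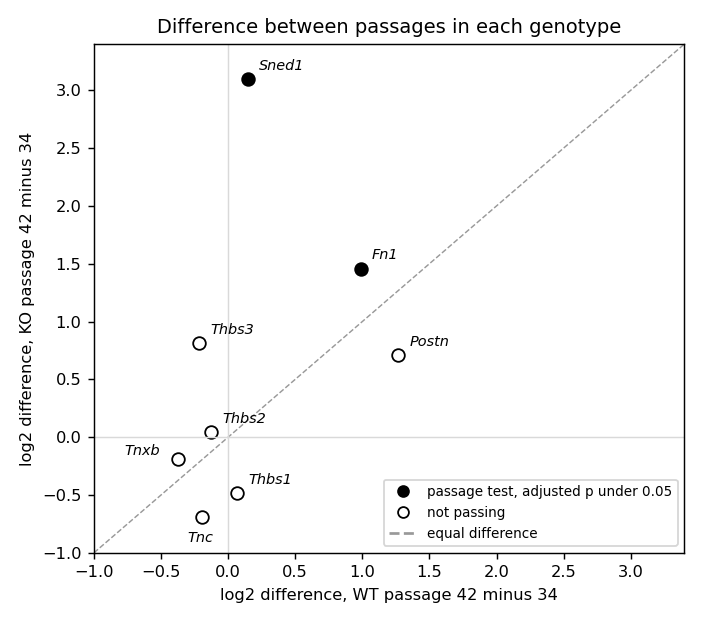
Log2 difference between passage 42 and passage 34 in *Tmpo* WT (horizontal axis) and *Tmpo* KO (vertical axis) for the 8 tested members, filled where the passage test gave an adjusted p under 0.05; the dashed line marks equal differences. *Sned1* lies far above the line (0.15 in WT, 3.10 in KO) and *Fn1* lies high on both axes.

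The 4 members that passed the genotype test are shown here with the 250 bases before an annotated start, since they moved in both directions and their start regions can be compared. The windows are RefSeq promoters of GRCm38.p6, and each matched mm9 at 1 place: chr17:14831270-14831519 on the minus strand for *Thbs2*, chr4:63708050-63708299 on the minus strand for the outer of 2 *Tnc* starts, chr17:34807230-34807479 on the plus strand for *Tnxb* and chr3:54164779-54165028 on the plus strand for *Postn*. Sequences run 5′ to 3′ on the gene's strand, and capitals mark the letters searched for on both strands. The *Tnc* start used by RefSeq lies 26289 bases before the start of *Tnc* in the GENCODE vM1 annotation.
Thbs2: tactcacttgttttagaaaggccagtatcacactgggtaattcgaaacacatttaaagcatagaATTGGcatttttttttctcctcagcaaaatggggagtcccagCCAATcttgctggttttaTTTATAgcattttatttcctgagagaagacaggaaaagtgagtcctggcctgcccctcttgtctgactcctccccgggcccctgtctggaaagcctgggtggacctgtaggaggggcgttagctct
Tnxb: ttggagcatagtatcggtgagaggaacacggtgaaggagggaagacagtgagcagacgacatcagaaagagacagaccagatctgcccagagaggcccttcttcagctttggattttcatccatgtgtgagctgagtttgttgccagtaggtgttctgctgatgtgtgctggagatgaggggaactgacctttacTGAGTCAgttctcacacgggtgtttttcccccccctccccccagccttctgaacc
Postn: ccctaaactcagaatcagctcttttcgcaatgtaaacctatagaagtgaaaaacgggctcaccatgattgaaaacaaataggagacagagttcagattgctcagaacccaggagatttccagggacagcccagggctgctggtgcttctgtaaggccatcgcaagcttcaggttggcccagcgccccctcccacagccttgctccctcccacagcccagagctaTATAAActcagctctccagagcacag
Tnc: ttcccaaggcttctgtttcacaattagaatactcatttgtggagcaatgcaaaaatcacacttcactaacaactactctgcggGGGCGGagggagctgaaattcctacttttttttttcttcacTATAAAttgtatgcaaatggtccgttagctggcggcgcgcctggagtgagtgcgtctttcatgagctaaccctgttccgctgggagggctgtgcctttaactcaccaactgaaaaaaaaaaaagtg

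The core promoter letters searched were TATAAA (the TATA box), CCAAT (bound by NF-Y) and GGGCGG (the GC box). The letters of regulated factors were TGACTCA and its reverse complement TGAGTCA (bound by AP-1), CACGTG (an E-box), GGAATG (bound by TEAD factors) and the CArG box of serum response factor. *Postn* held TATAAA 26 to 21 bases before its start, and *Thbs2* held TATAAA on the other strand 126 to 121 bases before its start together with 2 CCAAT matches. *Tnxb* held TGAGTCA 55 to 49 bases before its start, and the *Tnc* window held TATAAA 126 to 121 bases and GGGCGG 167 to 162 bases before the start. No searched motif was common to the 3 members called lower. The table matched 8 of the 10 members with 11 windows, without *Thbs1* and *Fn1*, and the overlapping *Tnc* windows share their matches. TATAAA occurred in 5 of the 11 and in 12.4% of all 32851 windows of this length, CCAAT in 3 (33.8%), GGGCGG in 4 (32.7%) and AP-1 in 1 (4.46%). CACGTG (6.02%), GGAATG (12.6%) and the CArG box (1.47%) occurred in none of the 11. A match describes letters only, and the lack of a match says nothing of a factor.

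Further genes of the same families and of their receptors, enzymes and regulators were read from the same fit. Of 96 such genes, 76 were tested, and 4 rose, 2 fell and 70 did not pass, beside the 1.51% called higher and 1.24% called lower among all transcripts. These lists were also chosen with earlier results of these data known. A further 19 lay below the filter, and *Hmcn2* matched no ID. In the thrombospondin family, the pentameric relatives *Comp* (−0.31, edgeR adjusted p = 0.825) and *Thbs4* (−0.01, 0.999) did not pass, and the median log2 fold change over the 5 genes was −0.01. In the tenascin family, *Tnn*, encoding tenascin-W, had 3.77 and 3.88 CPM in WT and 7.30 and 15.1 CPM in KO (1.55, edgeR adjusted p = 0.0758), and *Tnr*, a tenascin of the nervous system, had 0.30 (edgeR adjusted p = 0.866). *Tgfbi*, the relative of periostin, had 144 and 68.4 CPM in WT and 32.0 and 50.4 CPM in KO (−1.37, edgeR adjusted p = 0.0613). The genotypes of *Tnn* and *Tgfbi* did not overlap, but neither passed.

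Among relatives of SPARC, 0 of 4 tested genes were called by edgeR, with *Sparcl1* (−1.54, edgeR adjusted p = 0.133) nearest to the threshold and *Fstl1* (−0.10, 0.935) farthest from it. Of the fibulins, which organize elastic fibres and basement membranes, *Fbln5* alone of 7 tested genes passed. *Fbln5* had 51.8 and 36.9 CPM in WT and 89.6 and 166 CPM in KO (log2 fold change 1.53, edgeR adjusted p = 0.0188). *Hmcn1*, which encodes the giant fibulin relative hemicentin-1, had 2.15 (edgeR adjusted p = 0.0514), and *Efemp1*, encoding fibulin-3, had 0.94 (edgeR adjusted p = 0.190). The CCN family of matricellular proteins gave 0 calls among 5 tested genes. *Ccn4* (0.74, edgeR adjusted p = 0.0932) and *Ccn3* (−1.13, edgeR adjusted p = 0.284) came nearest to passing, and *Ccn5* (0.87, edgeR adjusted p = 0.307) and *Ccn1* (−0.21, 0.843) lay farther from the threshold. *Dspp*, a tooth and bone phosphoprotein gene related to *Spp1*, was the only gene of that group to be tested (0.09, edgeR adjusted p = 0.981).

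Receptors of matricellular proteins gave 0 calls among 16 tested genes, with a median log2 fold change of 0.05. The smallest adjusted p-values were those of the integrin gene *Itgb3* (1.05, edgeR adjusted p = 0.101), the growth factor receptor gene *Egfr* (−0.82, 0.204), the syndecan gene *Sdc1* (0.54, 0.275) and the hyaluronan receptor gene *Cd44* (1.07, 0.301). Enzymes that cross-link or cleave matrix were called in both directions. *Mmp3*, encoding stromelysin-1, took 12 and 10 reads in WT and 145 and 199 in KO (log2 fold change 3.56, edgeR adjusted p = 0.00118), and it reached the filter through its KO libraries alone. The gelatinase genes fell, *Mmp2* from 790 and 455 CPM in WT to 172 and 224 CPM in KO (−1.65, edgeR adjusted p = 0.00914) and *Mmp9* from 30.4 and 30.1 CPM to 4.54 and 9.36 CPM (−2.11, edgeR adjusted p = 0.00800). The lysyl oxidase relative *Loxl3* had 0.73 (edgeR adjusted p = 0.101), and 7 of the 10 tested enzymes did not pass.

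In the TGF-beta list 2 of 14 tested genes rose and none fell. *Tgfb1*, the gene of the ligand TGF-beta 1, took 78 and 72 reads in WT and 313 and 295 in KO (log2 fold change 1.64, edgeR adjusted p = 0.0213). *Ltbp2*, a microfibril protein gene of the latent TGF-beta binding family, had 135 and 121 CPM in WT and 210 and 451 CPM in KO (1.37, edgeR adjusted p = 0.0396). *Tgfb2* (−1.06, edgeR adjusted p = 0.0576) and the co-receptor gene *Tgfbr3* (0.96, edgeR adjusted p = 0.0668) lay just outside the threshold with opposite signs. Of the transcriptional regulators, among them the genes of SRF, TAZ (*Wwtr1*), TEAD1 and TEAD3, 0 of 14 tested genes passed edgeR's test. *Yap1*, *Tead2* and *Tead4* lay below the filter and were not tested. These genes have several IDs, as do *Wwtr1*, *Tead1* and *Tead3*, so their counts cannot be read as levels of the gene. *Twist1* (0.53, edgeR adjusted p = 0.262), *Jun* (0.53, 0.275), *Tead3* (1.03, 0.363) and *Id1* (−0.64, 0.390) had the smallest adjusted p-values, and *Myc* was at 0 under all 4 of its IDs.

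**Figure D5:**
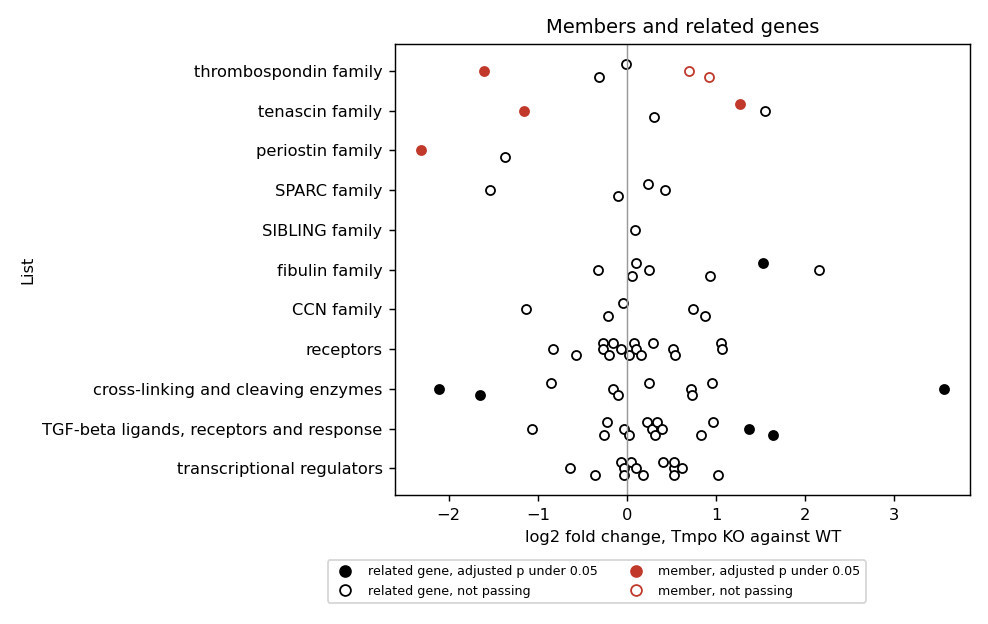
Log2 fold change of *Tmpo* KO against WT for the members (red) and the related genes (black) in 11 lists, filled where the adjusted p was under 0.05. Filled points lie on both sides of 0 in the tenascins and the matrix enzymes, and receptors, CCN genes and regulators hold no filled point.

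The nearest tested genes on either side of the 4 called members did not pass. *Smoc2* (0.23, edgeR adjusted p = 0.913) and *Wdr27* (−0.15, 0.947) flank *Thbs2*, at distances of 260710 and 135069 bases. *Tnfsf15* (−0.04, edgeR adjusted p = 0.990) and *Pappa* (−0.01, 0.996) flank *Tnc*, *Atf6b* (−0.18, 0.837) and *C4b* (1.15, 0.320) flank *Tnxb*, and *Frem2* (0.38, 0.765) and *Supt20* (−0.17, 0.874) flank *Postn*. At *Thbs3*, *Muc1* starts 2220 bases beyond its end and took 43 and 55 reads in WT and 143 and 181 in KO (1.35, edgeR adjusted p = 0.0620). *Tnxb* shares 3 bases with the annotated pseudogene *Cyp21a2-ps* and holds a U6 gene within it. The pseudogene's name matched counts only through a synonym, those of *Cyp21a1* (log2 fold change −0.02, edgeR adjusted p = 0.997). These values may therefore not be those of the overlapping pseudogene. *Fn1* shares 364 bases with *Apol7d*, which lay below the filter with 5 and 9 reads in WT and 23 and 10 in KO. How strand entered the counting is not stated in the labels or the study's methods, so reads of overlapping genes may be mixed or left as ambiguous.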

How the data were processed

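Total RNA depleted of rRNA was sequenced from 4 libraries. Per the submitters' processing notes and the study's methods, the authors clipped adapters with cutadapt, aligned to mm9 with TopHat2 2.0.9 and counted well-mapped reads per RefSeq transcript ID with HTSeq, so the deposited values are raw counts. IDs were matched to symbols through the RefSeq gene table, and positions and transcript lengths came from GENCODE vM1 on NCBIM37 (mm9). Special lines (no feature, ambiguous and the like) were kept out of library sizes.

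Counts were TMM-normalized and fitted in edgeR 4.0.16 (R 4.3.3; glmQLFit and glmQLFTest) on all 4 libraries, after a filter of at least 1 CPM in both libraries of a genotype, with Benjamini-Hochberg adjustment over 13855 transcripts and a threshold of 0.05. The passage fit added the genotype as a block. Within a passage, log2 CPM (prior count 2) was subtracted without a test. The scripts were tested on simulated data. Alternatives were RLE factors, library totals, DESeq2 1.42.0, the likelihood ratio and exact tests, other filters, counts summed per gene, a replicate block and leaving out each library.

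Genes named are all members, each called gene and otherwise up to 4 with the smallest p of each related list, the nearest tested neighbours of called members, overlapping genes, and the 3 transcripts with a mean of at least 50 counts closest in pattern to each called member. *Muc1* was named after its values were seen. Members and lists were chosen with earlier results of these data known. Protein sequences were not analysed here. The result of 1 marker list is not reported here.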

Additional observations from a re-analysis of the deposited data

How the results depend on the processing

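Of the member calls between genotypes, that of *Thbs2* held under all 13 alternatives. The count of transcripts called between genotypes (381) was 638 with edgeR's likelihood ratio test, 612 with its exact test, 740 with no filter on low counts and 1092 with a replicate block, and it ran from 109 (without WT replicate 2) to 1291 (without KO replicate 2) with 1 library left out. The count of members called (4) was 7 with no filter and 7 with the replicate block, and 1 (without WT replicate 2) to 6 (without KO replicate 2) with 1 library left out, where the lone library is assumed to vary like the other genotype. The replicate number is that of the passage, no source pairs the libraries, and the passage differences of WT and KO correlated with r = 0.175 across tested transcripts. Under the block *Thbs1* (0.68, edgeR adjusted p = 0.0240), *Thbs3* (0.88, adjusted p = 0.00447) and *Sned1* (−1.84, adjusted p = 6.35e-15) also passed. *Fn1* reversed without KO replicate 1 (0.21) and without WT replicate 2 (0.25), in a range of −1.29 to 0.25.

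For passage, the count of transcripts (320) was 48 with DESeq2 and 189 with the likelihood ratio test, and the count of members (2) was 1 with DESeq2. Without the genotype term, edgeR called 0 transcripts and 0 members, with 669 transcripts and 1 member at an unadjusted p under 0.05. Leaving out a library leaves the passage fit no residual degrees of freedom. *Postn* was not tested with a filter of 1 CPM in all libraries. The causes of these changes were not tested. With 2 libraries per genotype, the low counts of *Postn* and *Spp1* limit what can be seen.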

Other observations

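The transcripts closest in pattern to each called member were sought among 9926 transcripts with a mean of at least 50 counts, by the root mean square difference of log2 CPM centred over the 4 libraries. They share the libraries and their depth with the member, and 4 libraries give few ways for patterns to differ. Their fold changes follow from this choice, so their calls add no evidence about the member. For *Thbs2* they were *Ccdc122* (0.0806), the nucleoside transporter gene *Slc29a1* (0.0811) and *Itih2* (0.114), a gene of the hyaluronan-binding inter-alpha-trypsin inhibitor family. By edgeR these 3 were called lower (adjusted p = 0.0160, 0.0452 and 0.0121). For *Tnc* they were *Taf4b* (0.0245), *Tom1l1* (0.0440) and *Erc2* (0.0586), with log2 fold changes of 1.24, 1.21 and 1.21 that did not pass (edgeR adjusted p = 0.0588, 0.0863 and 0.133).

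For *Tnxb* the closest was *Cd109* (0.0468), which encodes a TGF-beta co-receptor and fell from 139 and 102 CPM in WT to 57.0 and 53.2 CPM in KO (−1.13, edgeR adjusted p = 0.0195), followed by *Ntn3* (0.0535) and *Tspan18* (0.0589), which did not pass. For *Postn* the distances were larger, with *Unc13c* (0.203), *Mir99ahg* (0.215) and *Srgap3* (0.221). Of these, *Unc13c* (−2.30, edgeR adjusted p = 0.00733) and *Srgap3* (−1.87, edgeR adjusted p = 0.00548) fell, and *Mir99ahg* (−1.78, edgeR adjusted p = 0.0599) did not pass.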
